A study of Homo sapiens with 20 samples.

Results

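The response of the human melanoma line A375 to torkinib was measured by RNA sequencing in 4 of the 20 libraries of a series of 5 cancer cell lines. The 4 libraries are those labelled A375, 2 from untreated cells and 2 from cells given 4 µM torkinib for 72 h, and all genes of their count tables were used. No time is given for the untreated cells, and nothing in the labels says that the 2 libraries of a group came from separate cultures. Each p-value therefore reflects only how libraries of a group vary, possibly for technical reasons. That spread was estimated over all 20 libraries of the series. A375 is an established line that carries an activating mutation of the kinase BRAF, and both groups share that genotype. It was grown in DMEM with fetal bovine serum, and per the labels the dose was picked to stop the cell cycle while the cells stayed viable. In bulk libraries fewer cells of a type or cycle phase and less RNA of a gene per cell cannot be told apart.

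Torkinib (PP242) blocks the ATP pocket of MTOR, the kinase at the heart of a pair of protein complexes. The first complex, with RPTOR, reads amino acids and growth factors and drives translation, lipid synthesis, nucleotide synthesis and amino acid synthesis, the last through translation of the transcription factor ATF4. The second, with RICTOR, phosphorylates AKT and SGK1. In melanoma the pathway runs beside the RAF, MEK and ERK cascade, which BRAF mutation keeps active.

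The A375 libraries held 6799559 and 7481714 counted reads untreated and 5651045 and 4040023 with torkinib, so the second torkinib library was the shallowest. Untreated replicate 1 stood apart from replicate 2 in 1 respect. Over 117 genes that mark the liposarcoma line 94T778, it held a median of 2.22% of their level in untreated 94T778, with a count for 116 of them, against 0.489% and 89 in replicate 2. For this reason genes high in 94T778 (at least 10 CPM there and at least 5 times their level in A375 untreated replicate 2, 562 genes tested) are given by single library, with the value of the fit without replicate 1. CPM is the count of a gene scaled to a fixed library size, normalised by the TMM method unless library totals are named.

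The label was checked against markers of the melanocyte lineage, of which some were present and the pigment genes were near 0. SOX10, the neural crest transcription factor of the lineage, stood at 602 and 670 CPM of library totals untreated and at 655 and 601 CPM with torkinib, against 0.0513 CPM in untreated AU565 and 0.249 CPM in 94T778. S100B, a calcium-binding protein of the same lineage, stood at 40.1 and 38.5 CPM untreated, against 657 CPM in untreated SKMEL28, another melanoma line. MITF, a transcription factor of the lineage, stood at 34.1 and 38.2 CPM untreated, against 505 CPM in SKMEL28. The pigment genes PMEL, MLANA, TYR, TYRP1 and DCT were at 7.06 CPM or below in each of the 4 libraries, against 410 to 3941 CPM in the untreated SKMEL28 melanoma line. AXL, a receptor kinase of the dedifferentiated melanoma state, stood at 454 and 472 CPM untreated in A375 and at 6.49 CPM in SKMEL28, and SOX9 stood at 4.71 and 3.61 against 0.114 CPM. The other 3 genes that the marker list sets under dedifferentiated or invasive melanoma were lower in A375 than in SKMEL28. NT5E stood at 144 and 146 against 941.5 CPM, TFAP2A at 9.71 and 9.76 against 144 CPM and NGFR at 30.2 and 30.9 against 46.0 CPM. TFAP2A also stood at 31.4 CPM in AU565 and 105 CPM in SKBR3, and whether it marks that state was not tested. ADIPOQ, CD3E and HBB, which define adipocytes, T cells and red cells, had no count in any A375 library. Other markers of the adipocyte and blood lists had counts. PPARG, a factor of adipocytes, stood at 99.3 and 102.9 CPM untreated, against 34.8 CPM in 94T778. FABP4 stood at 0.294 and 0.267 CPM and CD14 at 0.147 and 0.535 CPM.

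Of 16698 genes tested, 3087 (18.5%) rose and 4053 (24.3%) fell with torkinib at an adjusted p under 0.05 in the quasi-likelihood F test of edgeR, with p-values adjusted by the method of Benjamini and Hochberg, so 42.8% were called. Among the 10197 genes with a mean of 8 CPM or more the called share was 53.4%, with 23.0% higher and 30.3% lower, which is the closer background for lists of well expressed genes. Several lists below had a called share near or under 53.4%. It was 33.3% for cancer-testis antigens, 35% for ribosome biogenesis, 38.6% for nuclear oxidative phosphorylation, 39.1% for melanocyte and 40.6% for proteasome genes. It was 46.7% for the BCL2 family, 47.2% for MTOR and 50% for mitochondrially encoded genes. For interferon-stimulated, Fanconi anemia and class I genes it was 52.6%, 54.5% and 55.6%. Changes of at least 2-fold were more often falls (1644 genes, 9.85%) than rises (856, 5.13%). Both torkinib libraries lay above both untreated ones in 5355 genes (32.1%) and below them in 6175 (37.0%). A lack of overlap is thus common, and it adds little for genes named by smallest p or picked under that limit. The median change over all genes was -0.02 on the log2 scale, in which every change below is given as torkinib over untreated.

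Of the 12 largest rises among protein-coding genes, 8 were of histone genes and 3 of transcription factors. FOS, the partner of JUN in the AP-1 factor, stood at 10.0 and 7.27 CPM untreated and 350.0 and 289 CPM with torkinib. Both treated libraries were far above both untreated ones, a rise of 5.22 (SE 0.18, edgeR adjusted p = 1.32e-25). FOSB, its paralog, rose by 3.59 and KLF2, a zinc finger factor of quiescence, by 3.56. SHISA2, a regulator of WNT and FGF receptor maturation, went from 7.11 and 7.63 to 57.8 and 60.6 CPM, a rise of 2.998 (SE 0.17). The histone genes are described further on.

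The 12 largest falls under the same limits were spread over several kinds of gene. INHBE, an activin subunit, had 204 counts over the untreated libraries and none with torkinib, at least 46.1-fold lower. NUPR1, a stress-induced nuclear protein, had 207 counts and 1 count, a ratio of 140.5 (exact 95% interval 24.9 to 5575), and JDP2, a repressor of AP-1, had 180 counts and 1 count, a ratio of 122 (21.6 to 4851). These intervals cover counting error only. KRT81, a hair keratin whose reads may be shared with a near-identical neighbour, stood at 71.9 and 80.4 CPM untreated and 0.456 and 0.211 CPM with torkinib. Its change of -7.68 (SE 0.79, edgeR adjusted p = 3.30e-22) left both treated libraries at 0.456 CPM or below. ITGB4, the integrin subunit of hemidesmosomes, went from 99.5 and 106 to 1.37 and 1.05 CPM, a change of -6.36 (SE 0.48). CPA4, a carboxypeptidase, fell by 5.61, ADM2, a peptide of the adrenomedullin family, fell by 5.53, and KIAA1755 fell by 6.51. ANKRD1, a target of YAP, had 154 counts untreated and 2 with torkinib, a ratio of 52.2 (14.2 to 435). ADAMTSL1 and COL13A1 had ratios of 45.8 (12.4 to 382) and 43.4 (14.6 to 212).

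**Figure D1:**
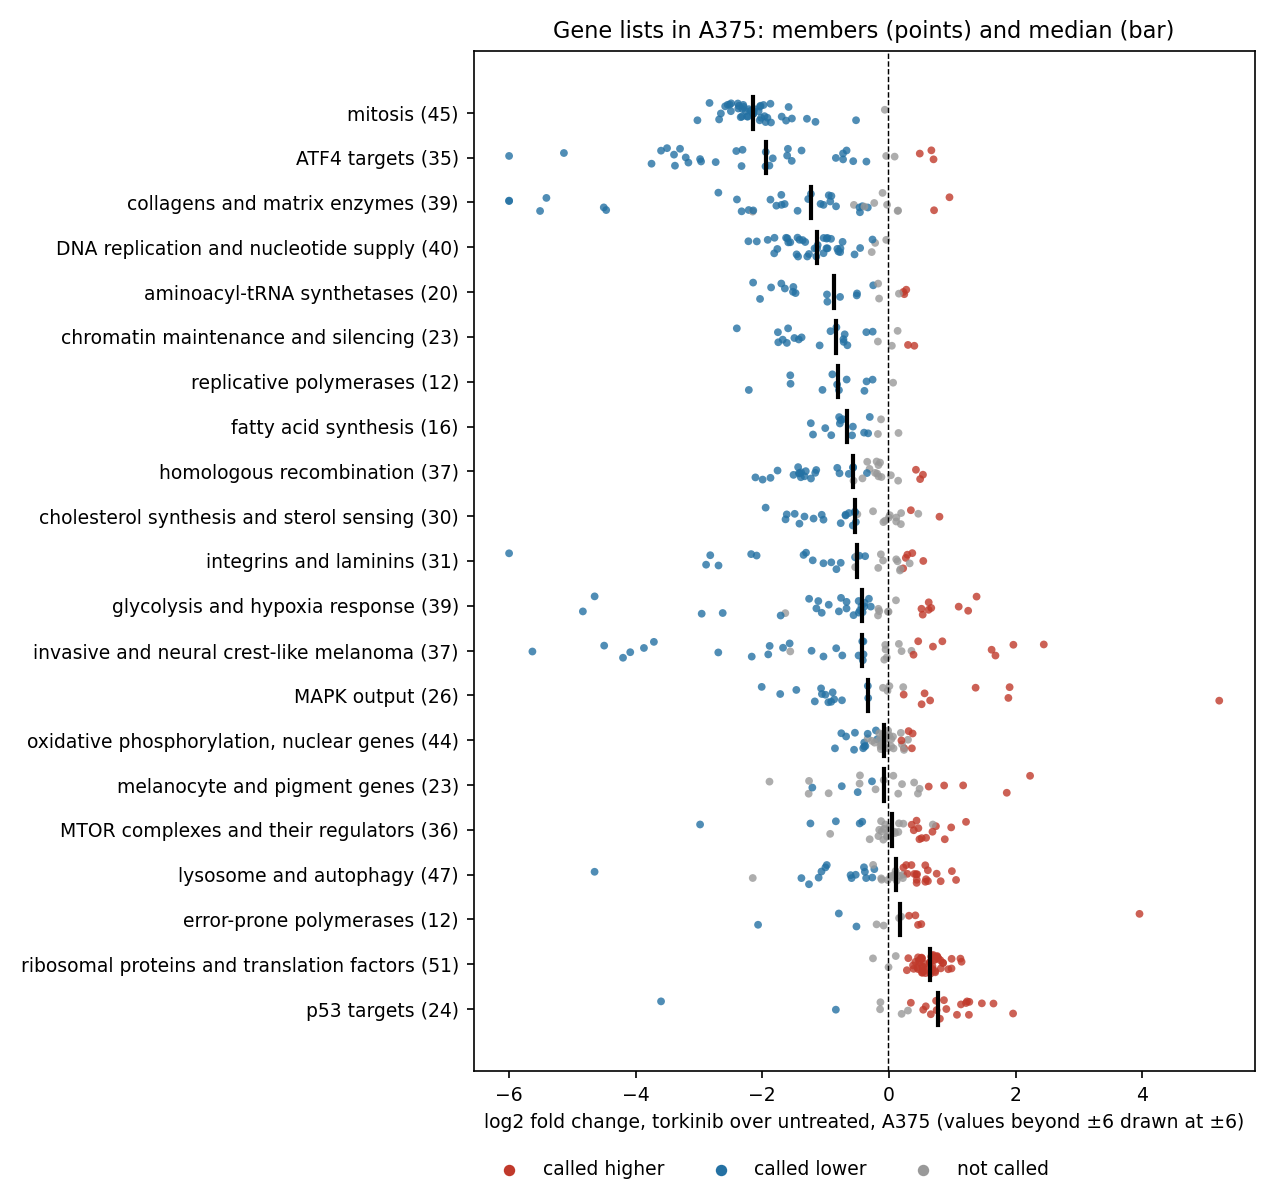
Change of each member (points, log2 fold change of torkinib over untreated) of 21 gene lists in A375, with the median of the list as a bar and the median of all genes tested as a dashed line; the number of members tested stands beside each name. The mitosis list has the lowest median (-2.15) and the p53 target list the highest (0.78), and the MAPK output list holds members called on both sides.

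The list of MTOR kinase complexes, with inhibitors, sensors and targets, held 36 tested genes, of which 12 rose, 5 fell and 19 were not called, with a median of 0.05 (0.10 without untreated replicate 1, 0.08 without torkinib replicate 1 and 0.09 without torkinib replicate 2). The kinase and scaffolds of the complexes showed small values. MTOR itself stood at 121 and 125 CPM untreated and 118 and 131 CPM with torkinib, a change of 0.01 (SE 0.08, edgeR adjusted p = 0.939), and the 4 libraries overlapped. RPTOR, the scaffold of the first complex, had a change of 0.09 and MLST8, shared by both, of -0.11. RICTOR, the scaffold of the second, went from 71.1 and 63.1 to 63.9 and 70.3 CPM, with a change of less than 0.01 in size (SE 0.09, edgeR adjusted p = 1.00). Subunits and inhibitors among the rises were DEPTOR, AKT1S1 and MAPKAP1. DEPTOR, which binds and restrains both complexes, stood at 9.75 and 9.42 CPM untreated and 16.9 and 14.9 CPM with torkinib and rose by 0.74 (SE 0.18, edgeR adjusted p = 8.77e-04). AKT1S1 (PRAS40), an inhibitor of the first complex, rose by 0.52 and MAPKAP1 (SIN1), a subunit of the second, by 0.36.

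Genes that carry amino acid and growth factor signals to the complex moved both ways. DDIT4 (REDD1), an inducible inhibitor acting through TSC2, had the largest change of the list. It stood at 347 and 350.1 CPM untreated and 49.0 and 38.1 CPM with torkinib, a change of -2.98 (SE 0.10, edgeR adjusted p = 2.96e-24), with no overlap between the groups. SESN2, a leucine sensor and ATF4 target, fell by 0.84, while SESN1, its p53-regulated paralog, rose by 1.22 (SE 0.14). The RAG GTPases, which bring the complex to the lysosome, all rose: RRAGA by 0.88, RRAGC by 0.69, RRAGB by 0.59 and RRAGD by 0.44. FLCN, the GTPase activator of RRAGC and RRAGD and a gene high in 94T778, rose by 0.47, or 0.64 without untreated replicate 1. RRAGB lost its call without untreated replicate 2 (0.40) or torkinib replicate 2 (0.49), RRAGD without torkinib replicate 1 (0.33), and FLCN without untreated replicate 2 (0.30) or torkinib replicate 1 (0.38). RHEB, the direct activator, fell by 0.46, TSC2, which switches RHEB off, rose by 0.48, and TSC1 had a change of 0.16. Of the targets, EIF4EBP1, the repressor of cap-dependent translation, went from 94.2 and 105 to 41.5 and 43.2 CPM, a change of -1.24 (SE 0.11). SGK1, a kinase activated through the second complex, stood at 67.3 and 63.1 CPM untreated and 129 and 128 CPM with torkinib and rose by 0.98 (SE 0.10). RPS6KB1 and EIF4EBP2 had changes of -0.09 and 0.15 and were not called. AKT1, AKT2 and PIK3CA were not called (-0.03, -0.06 and -0.12). The other members not called were the S6 kinase RPS6KB2 (-0.17), SESN3 (-0.08), the FLCN partners FNIP1 (-0.03) and FNIP2 (0.23) and TBC1D7 of the TSC complex (-0.30). The sparsely counted PRR5 (0.10), PRR5L (-0.15), GATSL3 (-0.93) and PIK3IP1 (0.69) were not called either. PRR5L is high in 94T778. It stood at 0.735 and 0.802 CPM of library totals untreated and 1.06 and 0.248 CPM with torkinib, and changed by -0.21 without untreated replicate 1.

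The genes that ATF4 controls fell by more than any other list except mitosis among the lists over cell processes. Of 35 tested, 30 fell, 3 rose and 2 were not called, with a median of -1.95, and the same 30 genes were called lower without untreated replicate 1. PSAT1, an enzyme of serine synthesis, stood at 606 and 565 CPM untreated and 63.0 and 55.2 CPM with torkinib. Both treated libraries lay far below both untreated ones, a change of -3.30 (SE 0.09, edgeR adjusted p = 1.09e-26). ASNS, which makes asparagine, stood at 502 and 465 CPM untreated and 44.6 and 48.6 CPM with torkinib and fell by 3.38 (SE 0.10, edgeR adjusted p = 1.11e-25). PHGDH, the first enzyme of serine synthesis, went from 379.7 and 385 to 45.2 and 53.3 CPM (change of -2.97, SE 0.10). TRIB3, a pseudokinase induced by ATF4, stood at 408 and 422 CPM untreated and 46.6 and 45.7 CPM with torkinib, a change of -3.17 (SE 0.10). No library of one group reached the other group in any of these 4 genes. CHAC1, which degrades glutathione, went from 41.4 and 46.6 to 1.07 and 1.47 CPM and fell by 5.13 (SE 0.42). SLC7A11, the cystine carrier, went from 274 and 267 to 48.2 and 53.9 CPM (change of -2.41), and its partner SLC3A2 fell by 1.38. ATF4 mRNA itself, named after its value was seen, stood at 474 and 468 CPM untreated and 293 and 276 CPM with torkinib, a change of -0.72 (SE 0.08), smaller than the fall of the list median.

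The enzymes that load amino acids onto tRNAs fell in part. Of 20 cytosolic aminoacyl-tRNA synthetases, 14 fell and 3 rose, with a median of -0.87; the 3 rises were of DARS, KARS and RARS, named because they are few, and 1 was left without torkinib replicate 1. GARS (glycine) stood at 742 and 709 CPM untreated and 157 and 171 CPM with torkinib, a change of -2.14 (SE 0.08, edgeR adjusted p = 1.43e-22). AARS (alanine) went from 718 and 725 to 177 and 175 CPM (change of -2.036), WARS (tryptophan) from 482 and 474 to 135 and 128 CPM (change of -1.86) and YARS (tyrosine) from 515 and 508 to 161 and 153 CPM (change of -1.70). In each of these 4 genes both treated libraries were below both untreated ones, and the 2 libraries of a group lay close together.

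**Figure D2:**
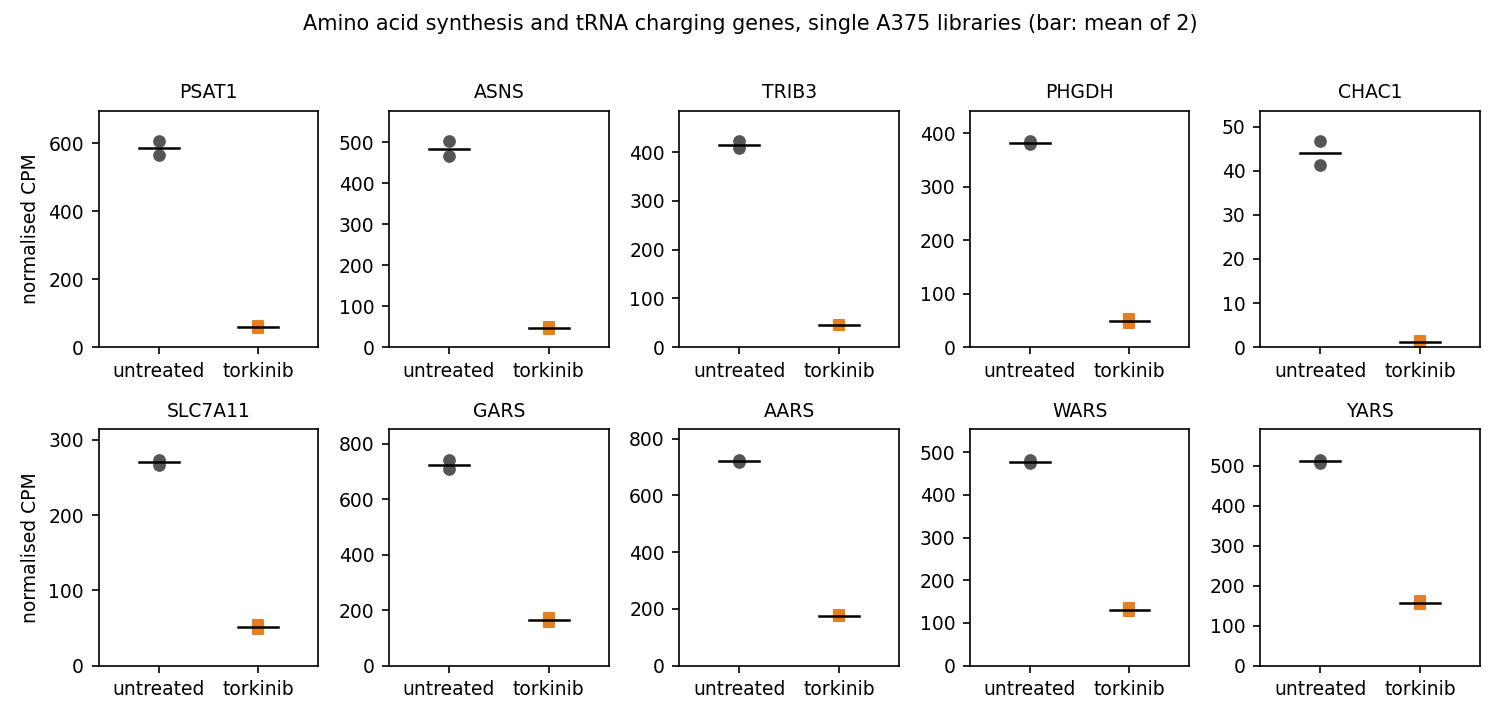
Normalised CPM of 10 genes of amino acid synthesis, transport and tRNA charging in the 4 A375 libraries (points, circles untreated, squares torkinib, bar the mean of 2 libraries; each panel has its own axis from 0). In each panel both torkinib libraries lie below both untreated libraries, for PSAT1 at 63.0 and 55.2 CPM against 606 and 565 CPM.

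A search for the letters of the C/EBP-ATF response element, TGATGNAA on either strand, was made in the 250 bases before the annotated start of each gene (RefSeq, GRCh38.p14), and was chosen after the values were seen. It found them in 5 of the 30 ATF4-list promoters that could be matched (16.7%) and in 2 of 12 synthetase promoters (16.7%), against 3.14% of all 35116 promoters. Of the 5, 4 belong to genes that fell and 1 to a gene that rose, ATF3. Of the 25 ATF4-list genes without the letters 21 fell, 2 rose and 2 were not called, so the letters did not separate the calls. A match is a description of letters and not a binding site. The 4 windows below belong to genes with large falls and show the letters in capitals, with up to 30 bases on each side, 5′ to 3′ on the strand of the gene.
ASNS (chr7:97872439-97872506, minus strand): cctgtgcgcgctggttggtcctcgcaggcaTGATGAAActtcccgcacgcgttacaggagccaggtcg
CHAC1 (chr15:40953232-40953299, plus strand): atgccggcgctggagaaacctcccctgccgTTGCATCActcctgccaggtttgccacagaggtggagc
AARS (chr16:70289656-70289723, minus strand): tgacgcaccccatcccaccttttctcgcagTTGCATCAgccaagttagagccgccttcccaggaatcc
IARS (chr9:92293698-92293740, minus strand): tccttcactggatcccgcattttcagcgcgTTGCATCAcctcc
The letters start 68 bases before the annotated start in ASNS, 209 in CHAC1, 187 in AARS and 13 in IARS, where they read TTGCATCA on the gene's strand in the last 3 and TGATGAAA in ASNS.

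Genes of cell division fell nearly without exception. Of 45 mitosis genes, 44 fell and none rose, with a median of -2.15. PLK1, the kinase of mitotic entry, stood at 125 and 133 CPM untreated and 21.5 and 18.3 CPM with torkinib, a change of -2.68 (SE 0.11, edgeR adjusted p = 3.73e-22). TPX2, which activates Aurora A on the spindle, went from 315 and 312 to 60.4 and 59.998 CPM (change of -2.38, SE 0.08), PRC1, which bundles the midzone, from 244 and 235 to 38.8 and 46.9 CPM (change of -2.49) and KIF20A, a cytokinesis motor, from 101 and 106 to 16.7 and 17.9 CPM (change of -2.59). The groups did not overlap in any of these 4 genes.

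The CHR letters TTTGAA, known from promoters of genes of late cycle phases, were found on either strand in the same 250 bases of 20 of 38 matched mitosis promoters (52.6%), against 13.3% of all promoters. The 20 genes with the letters and the 18 without all fell, so the letters did not separate the calls. In PLK1 they start 29 bases and in PRC1 20 bases before the annotated start, and the windows are shown with the letters in capitals.
PLK1 (chr16:23678830-23678888, plus strand): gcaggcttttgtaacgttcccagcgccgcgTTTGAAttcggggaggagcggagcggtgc
PRC1 (chr15:90994536-90994585, minus strand): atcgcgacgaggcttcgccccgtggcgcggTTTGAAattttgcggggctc

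Replication genes fell by less. Of 40 genes of DNA replication and nucleotide supply 37 fell and none rose (median -1.14). RRM2, the ribonucleotide reductase subunit made in S phase, stood at 274 and 248 CPM untreated and 58.6 and 64.8 CPM with torkinib, a change of -2.09 (SE 0.11). TK1, thymidine kinase, went from 58.6 and 65.2 to 14.6 and 11.6 CPM (change of -2.22), CDC6, which loads the MCM helicase, fell by 1.62 and TIMELESS, of the fork protection complex, fell by 1.59. Letters of E2F sites (TTTCGCGC, TTTGGCGC or TTTCCCGC, either strand) were in 10 of 36 matched promoters of this list (27.8%) against 2.32% of all promoters. All 10 genes fell, as did 23 of the 26 without the letters, so the letters did not separate the calls here either.

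Of the 12 subunits of the replicative polymerases and primase, 11 fell and none rose, with a median of -0.80. POLE2, a subunit of polymerase epsilon, had the largest fall (-2.21, from 10.1 and 9.66 to 2.13 and 2.11 CPM). POLD3, of polymerase delta, went from 57.7 and 56.4 to 19.8 and 18.9 CPM, a change of -1.55 (SE 0.12). PRIM1, the catalytic primase subunit, fell by 1.56, POLA1, the catalytic subunit of polymerase alpha, fell by 1.05, PRIM2 fell by 0.89, POLA2 fell by 0.82, POLE fell by 0.79 and POLD1 fell by 0.67. POLD2, POLE4 and POLE3 had the smallest falls (-0.35, -0.39 and -0.26), and each lost its call when certain single libraries were left out: POLD2 without untreated or torkinib replicate 2 (-0.28 and -0.25), POLE3 without untreated replicate 1, untreated replicate 2 or torkinib replicate 2 (-0.26, -0.26 and -0.19), and POLE4 without any 1 of the 4 (-0.43, -0.34, -0.35 and -0.42). POLD4 had a change of 0.07 and was not called.

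Of 12 error-prone polymerases and their partners 5 rose and 3 fell (median 0.18, or 0.10 without torkinib replicate 1). REV3L, the catalytic subunit of polymerase zeta, went from 61.7 and 59.7 to 74.9 and 99.997 CPM, a rise of 0.51 (SE 0.12). POLI rose by 0.46, POLH, which copies past ultraviolet lesions, by 0.42 and REV1, the scaffold of translesion synthesis, by 0.32. POLN had 1 count untreated and 14 with torkinib, a ratio of 20.6 (3.14 to 872). Rises numbered 2 without untreated replicate 2, where POLH (0.37), POLI (0.41) and REV1 (0.28) lost their calls, and 2 without torkinib replicate 2, where REV3L (0.30), POLI (0.39) and REV1 (0.24) lost theirs. POLQ, which joins ends by microhomology, stood at 40.6 and 38.0 CPM untreated and 9.43 and 9.26 CPM with torkinib, a change of -2.07 (SE 0.17, edgeR adjusted p = 1.72e-13). MAD2L2, the partner of REV3L, fell by 0.79 and CCDC111 (PRIMPOL) fell by 0.51, the latter not called without torkinib replicate 2 (-0.34). POLK, POLL, POLM and POLB were not called (0.16, -0.08, 0.19 and -0.19).

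Homologous recombination genes fell in the majority. Of 37 homologous recombination genes 21 fell and 3 rose (median -0.57), and without torkinib replicate 1 there was 1 rise. EXO1, the end-resecting nuclease, went from 81.7 and 70.9 to 15.5 and 20.4 CPM, a change of -2.11 (SE 0.14). BRCA1 fell by 1.39, RAD51AP1, of strand exchange, fell by 1.99 and RAD54L, a DNA translocase, fell by 1.87. Of 22 Fanconi anemia genes 10 fell and 2 rose (median -0.41), with 1 rise left without untreated or torkinib replicate 1. FANCI stood at 185 and 175 CPM untreated and 63.8 and 60.4 CPM with torkinib, a change of -1.53 (SE 0.09), and its partner FANCD2 fell by 1.56. UBE2T, the ubiquitin-conjugating enzyme of the pathway, fell by 1.98 and UHRF1 fell by 1.49. Of 23 genes of chromatin maintenance 18 fell and 2 rose (median -0.83), with 1 rise left without any 1 of the 4 libraries. H2AFZ, the H2A.Z variant histone, went from 279 and 280.2 to 91.3 and 82.9 CPM (change of -1.68), LMNB1, lamin B1, from 178 and 171 to 50.7 and 53.5 CPM (change of -1.75), HMGB2 fell by 1.75 and HMGB3 fell by 1.59.

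Targets of p53 rose in the majority. Of 24 tested, 18 rose, 2 fell and 4 were not called, with a median of 0.78, against 23.0% of genes of 8 CPM or more called higher. CDKN1A (p21), the inhibitor of cyclin-dependent kinases, stood at 134 and 139.6 CPM untreated and 307 and 296 CPM with torkinib, a rise of 1.14 (SE 0.08, edgeR adjusted p = 1.50e-14). ZMAT3, an RNA-binding protein induced by p53, went from 34.5 and 34.8 to 132 and 139 CPM, a rise of 1.96 (SE 0.10), and BTG2, an antiproliferative factor, from 14.9 and 13.5 to 44.0 and 33.5 CPM (rise of 1.47). The groups did not overlap in any of these 3. BAX and BBC3 (PUMA), which promote cell death, rose by 0.91 and 1.27. The 2 falls were of genes that the ATF4 list also holds, GDF15, a stress cytokine, at 30.8 and 33.6 CPM untreated and 3.20 and 1.89 CPM with torkinib (change of -3.60, SE 0.28) and SESN2. MDM2, the ligase that degrades p53, is high in 94T778 and is given with the genes of that kind.

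Among 27 regulators of G1, 14 fell and 3 rose (5 without torkinib replicate 1), with a median of -0.59. It was -0.32 without untreated replicate 1, and also -0.32 in the fit of all libraries with members that lack counts in a group set at their bound. CCND1 (cyclin D1) stood at 489.6 and 485 CPM untreated and 237 and 249.9 CPM with torkinib, a change of -1.003 (SE 0.08, edgeR adjusted p = 2.08e-13). CDC25A, a phosphatase that activates CDK2, went from 54.8 and 55.2 to 10.3 and 11.4 CPM (change of -2.35) and E2F7, a repressor made in S phase, from 63.2 and 71.4 to 18.0 and 19.8 CPM (change of -1.84). Of 15 genes of the BCL2 family 3 rose, 4 fell and 8 were not called, with a median of -0.20 (-0.34 without untreated replicate 1, -0.04 without untreated replicate 2 and -0.37 without torkinib replicate 1). Beside the rises of BAX and BBC3, PMAIP1 (NOXA) fell by 1.84 and BCL2L1 (BCL-XL), which protects cells, went from 86.4 and 90.3 to 38.5 and 36.6 CPM (change of -1.23, SE 0.10). Among FOXO targets and receptors released from feedback, 9 of 27 rose and 9 fell, and the falls numbered 4 without untreated replicate 1 and 5 without either torkinib library. IRS2, an adaptor of the insulin receptor, stood at 132 and 128 CPM untreated and 445 and 439.8 CPM with torkinib, a rise of 1.77 (SE 0.08, edgeR adjusted p = 4.56e-20). TXNIP, an inhibitor of glucose uptake, rose by 1.19, KLF6 by 1.61, and GRB10, an adaptor that restrains insulin signalling, went from 75.5 and 80.7 to 18.9 and 17.5 CPM, a change of -2.10 (SE 0.11).

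**Figure D3:**
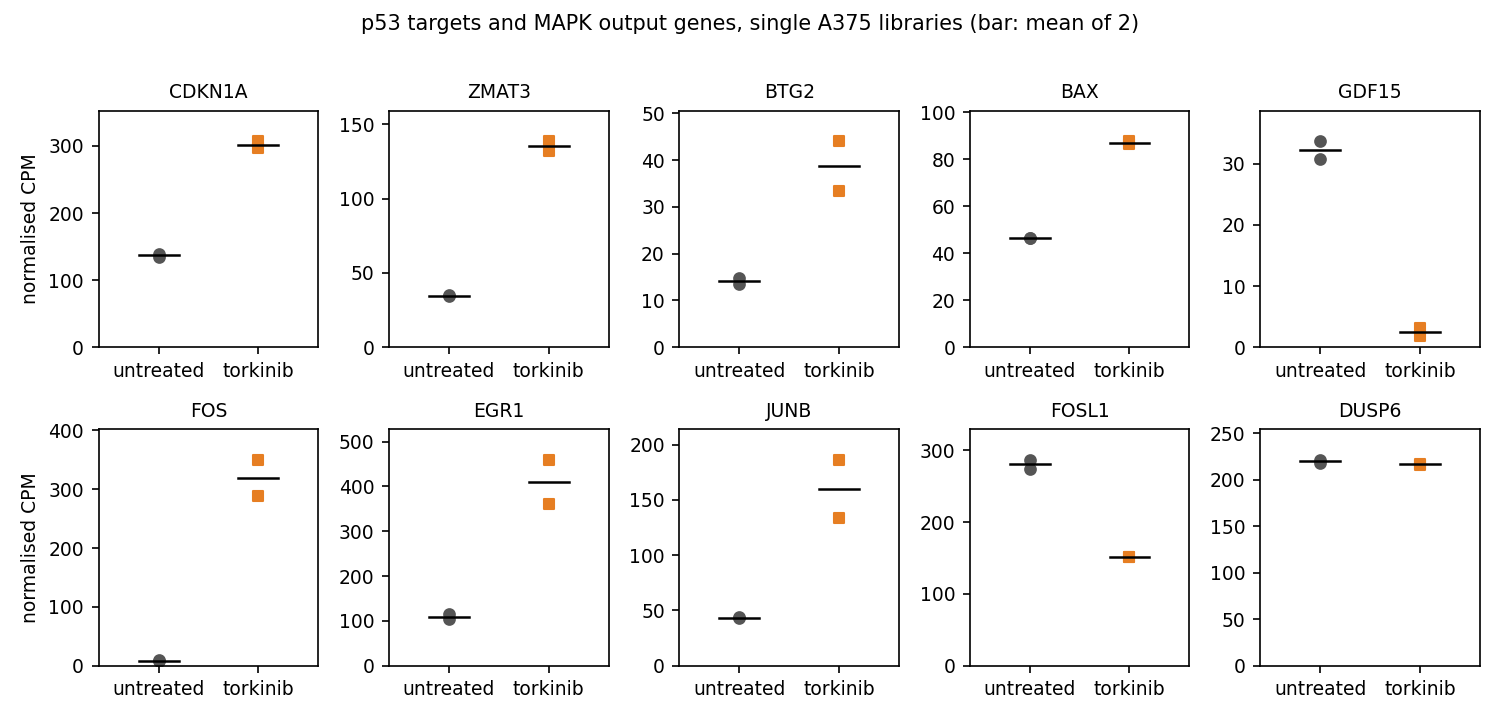
Normalised CPM of 5 p53 targets (upper row) and 5 MAPK output genes (lower row) in the 4 A375 libraries (points, circles untreated, squares torkinib, bar the mean of 2 libraries; each panel has its own axis from 0). CDKN1A, ZMAT3, BTG2 and BAX are higher with torkinib and GDF15 is lower, and FOS, EGR1 and JUNB are higher while FOSL1 is lower and DUSP6 lies at 216 to 221 CPM in all 4.

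Genes read as output of the ERK cascade moved both ways. Of 26 tested, 8 rose, 14 fell and 4 were not called (median -0.33). The transcription factors EGR1 and JUNB rose beside FOS, EGR1 from 103 and 116 to 459 and 361 CPM (1.91, SE 0.10) and JUNB from 42.7 and 44.2 to 186 and 133 CPM (1.89, SE 0.11). DUSP4, a phosphatase of ERK, rose by 0.52, SPRY2, a feedback inhibitor, by 0.56 and EPHA4 by 1.37. SPRY1 (0.65) and SPRED1 (0.23) rose as well, but SPRY1 was not called without torkinib replicate 2 (0.52) and SPRED1 without any 1 of the 4 libraries (0.21 to 0.26). The other called members fell. FOSL1 (FRA1) stood at 274 and 287 CPM untreated and 152 and 151 CPM with torkinib, a change of -0.89 (SE 0.08, edgeR adjusted p = 3.78e-12). The ETS factor ETV4 fell by 1.17, ETV5 fell by 0.86 and ETV1 fell by 0.33, DUSP5 fell by 1.46, SPRY4 fell by 0.74 and PHLDA1 fell by 0.33. EPHA2, an ephrin receptor, went from 365 and 386 to 118 and 110.3 CPM (change of -1.72), and PLAUR, the urokinase receptor, from 39.1 and 41.6 to 11.9 and 7.58 CPM (change of -2.01). IER3 fell by 1.06, LIF fell by 1.07, IL8 fell by 0.91 and HMGA2 fell by 0.96. DUSP6, the ERK phosphatase often used to read the cascade, stood at 219 and 221 CPM untreated and 216 and 217 CPM with torkinib and was not called (-0.02, SE 0.08, edgeR adjusted p = 0.876), nor were MYC (0.23), SPRED2 (-0.09) and SPRED3 (0.01).

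Of 23 melanocyte and pigment genes, 5 rose, 4 fell and 14 were not called. Their median was -0.08, and it was 0.03 without untreated replicate 1 and -0.15 to -0.31 without any other 1 library. MITF, the master factor of the lineage, stood at 30.6 and 34.1 CPM untreated and 19.8 and 18.7 CPM with torkinib, a change of -0.74 (SE 0.15, edgeR adjusted p = 9.36e-05), and PAX3, which acts upstream of it, went from 16.996 and 17.8 to 7.30 and 7.79 CPM (change of -1.21). S100B stood at 36.0 and 34.3 CPM untreated and 80.9 and 77.3 CPM with torkinib and rose by 1.17 (SE 0.10), RAB38, of melanosome transport, rose by 0.63 and CAPN3 by 2.23 from a low level (1.84 and 0.596 to 5.78 and 5.47 CPM). GPNMB, a melanosome and lysosome glycoprotein that is high in 94T778, rose by 0.87 and by 0.89 without untreated replicate 1. MCAM, an adhesion molecule, fell by 0.49, and S100A1 fell by 0.27, the latter not called without untreated or torkinib replicate 1 (-0.21 each). SOX10 (-0.08), ERBB3 (0.07) and CDH19 (-0.21) were not called. DCT rose by 1.86 at 0.527 and 0.238 CPM untreated and 1.37 and 1.47 CPM with torkinib and lost its call without untreated replicate 2 (1.39), torkinib replicate 1 (1.92) or torkinib replicate 2 (1.82). PMEL, MLANA, TYR, TYRP1, OCA2, SLC45A2, SLC24A5, TRPM1, GPR143 and BCL2A1 were at 6.32 CPM or below in every library and were not called, and RAB27A was not called (-0.46).

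Of 37 genes of the invasive or neural crest-like melanoma state 21 fell and 8 rose (median -0.42), and 10 of the 37 are high in 94T778. AXL went from 406 and 421 to 148 and 130.1 CPM, a change of -1.57 (SE 0.08, edgeR adjusted p = 3.55e-18). SERPINE2, a secreted protease inhibitor, stood at 6296 and 6383 CPM untreated and 1714 and 1721 CPM with torkinib, a change of -1.88 (SE 0.08). TGFBI, a matrix protein induced by TGF-beta, fell by 2.70 (-2.65 without untreated replicate 1). JUN, the AP-1 partner of FOS, stood at 14.8 and 11.2 CPM untreated and 79.9 and 59.6 CPM with torkinib, a rise of 2.45 (SE 0.14) and of 2.65 without untreated replicate 1. NGFR, the neural crest stem cell marker, was at 30.2 and 30.9 CPM of library totals untreated and 1.95 and 1.73 CPM with torkinib.

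Matrix and adhesion genes fell in the majority. Of 39 collagens and matrix enzymes, 29 fell and 2 rose (median -1.23, or -1.08 with members lacking counts at their bound), and 21 of the 26 that are not high in 94T778 fell. LOXL2, which cross-links collagen, stood at 147 and 147 CPM untreated and 6.70 and 6.53 CPM with torkinib, a change of -4.47 (SE 0.17, edgeR adjusted p = 1.32e-25). The basement membrane collagens COL4A1 and COL4A2 went from 349 and 360.0 to 102 and 105 CPM and from 685 and 708 to 215 and 215 CPM, changes of -1.78 and -1.70. COL5A2, a fibrillar collagen, went from 245 and 258 to 48.5 and 52.0 CPM (change of -2.33). In all 4 genes both untreated libraries lay above both treated ones. Of 31 integrins and laminins 16 fell and 5 rose (3 without untreated replicate 2). Beside ITGB4, ITGA1, a collagen receptor, stood at 252 and 242 CPM untreated and 31.0 and 36.2 CPM with torkinib, a change of -2.89 (SE 0.10), ITGA5, the fibronectin receptor, went from 254 and 275 to 64.2 and 59.6 CPM (change of -2.09), and L1CAM, which is high in 94T778, fell by 2.69 (-2.58 without untreated replicate 1).

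Genes of lipid synthesis fell in the majority. Of 30 cholesterol genes 17 fell and 2 rose (median -0.54). STARD4, a sterol carrier, stood at 56.3 and 53.7 CPM untreated and 13.8 and 14.7 CPM with torkinib, a change of -1.95 (SE 0.16, edgeR adjusted p = 9.74e-14). INSIG1, the sterol sensor of the SREBP pathway, fell by 1.41 and FDPS, a mevalonate pathway enzyme, fell by 1.03. Of 16 fatty acid genes 13 fell and none rose (median -0.65). SCD, the stearoyl desaturase, went from 731 and 752 to 360.5 and 379 CPM (change of -1.01, SE 0.08), FADS1, a desaturase of polyunsaturated fats, fell by 1.23, TECR fell by 1.199 and ACLY, which supplies acetyl-CoA, fell by 0.79.

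Of 39 glycolysis and hypoxia genes 24 fell and 8 rose (median -0.43). HIF1A, the hypoxia factor, stood at 391.7 and 401 CPM untreated and 187 and 193 CPM with torkinib, a change of -1.06 (SE 0.08, edgeR adjusted p = 1.80e-13), and its target VEGFA went from 136 and 141 to 41.8 and 42.7 CPM (change of -1.71). PFKFB4, which raises the activator of phosphofructokinase, fell by 1.145. MXI1, an antagonist of MYC, went from 52.7 and 48.7 to 129 and 136 CPM, a rise of 1.39 (SE 0.09). Of 44 nuclear genes of oxidative phosphorylation 27 were not called, 12 fell and 5 rose (2 without untreated replicate 1, 3 without torkinib replicate 1), with a median of -0.08, or -0.13 without torkinib replicate 1. UQCRC1, of complex III, went from 145 and 143 to 86.4 and 72.0 CPM (change of -0.85), SDHA, of complex II, fell by 0.68 and SDHB, of the same complex, fell by 0.55. Of 12 genes of the mitochondrial genome 5 fell, 3 without untreated or torkinib replicate 2. MT-ATP6 fell by 1.09 (SE 0.14) and MT-ND4 fell by 0.61 (SE 0.15). MT-ND1 rose by 0.53 and lost that call without untreated replicate 1 (0.45) or torkinib replicate 1 (0.34).

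Messages of the translation machinery rose. Of 51 ribosomal protein and translation factor genes, 48 rose and none fell, with a median of 0.65. TPT1, whose message starts with the pyrimidine tract that MTOR regulates, stood at 1928 and 1845 CPM untreated and 4066 and 4294 CPM with torkinib, a rise of 1.148 (SE 0.08, edgeR adjusted p = 1.67e-14). RPLP2, of the ribosomal stalk, went from 337 and 315 to 711 and 715 CPM (rise of 1.13), RPL13 from 714 and 702 to 1457 and 1354 CPM (rise of 0.99) and EEF1B2, an elongation factor subunit, from 279 and 261 to 547 and 525 CPM (rise of 0.99). Many of these genes have pseudogenes, and reads with several alignment positions were assigned to no gene (11.55 to 13.56% of reads in the 4 libraries), so their levels are uncertain. Genes that build ribosomes were mostly not called, with 9 of 40 higher (5 without untreated replicate 2), 5 lower (3 without torkinib replicate 1) and a median of 0.08 (0.03 without torkinib replicate 1). RRS1 rose by 0.63 and NOP56, of small nucleolar particles, by 0.40, and POLR3G, a subunit of RNA polymerase III, went from 45.5 and 43.5 to 25.3 and 28.4 CPM (change of -0.74).

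Of 47 lysosome and autophagy genes 18 rose and 15 fell (median 0.11, or 0.03 without untreated replicate 2). SQSTM1 (p62), the autophagy receptor, stood at 323 and 328 CPM untreated and 612 and 535 CPM with torkinib, a rise of 0.82 (SE 0.08, edgeR adjusted p = 3.63e-11), and CTSF, a cathepsin, went from 36.1 and 38.2 to 75.3 and 72.6 CPM (rise of 0.995). CTSB, another cathepsin, went from 212 and 191 to 105 and 98.3 CPM (change of -0.98), and TFE3, a transcription factor of lysosome genes that MTOR keeps in the cytoplasm, from 90.9 and 91.6 to 42.9 and 41.5 CPM (change of -1.11, SE 0.10). The E-box letters CACGTG, a core of the site these factors bind, were in 11 of 32 matched promoters of the list (34.4%), against 6.34% of all promoters. Of the 11 genes, 8 rose, none fell and 3 were not called, and of the 21 without the letters 5 rose, 10 fell and 6 were not called. The same letters were in 6 of 38 mitosis promoters (15.8%), 6 of 36 replication promoters (16.7%) and 5 of 30 ATF4-list promoters (16.7%), and of those genes 6, 5 and 4 fell and none rose. Both windows shown belong to genes that rose; CTSF holds the letters at 123 and 51 bases before the start, of which the nearer is shown, and MCOLN1, a lysosomal calcium channel named after its value was seen (0.76), at 41 and 14 bases, both in its window.
CTSF (chr11:66568622-66568687, minus strand): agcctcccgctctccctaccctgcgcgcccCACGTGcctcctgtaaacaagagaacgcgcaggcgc
MCOLN1 (chr19:7522553-7522618, plus strand): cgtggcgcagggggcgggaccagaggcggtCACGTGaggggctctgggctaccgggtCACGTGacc

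Of 32 proteasome genes 11 fell and 2 rose, with a median of -0.10. The falls numbered 4 without untreated replicate 1, 7 without torkinib replicate 1 and 6 without torkinib replicate 2, and the rises 0 or 1 without any 1 library. PSMB6 went from 80.4 and 76.6 to 47.6 and 45.3 CPM (change of -0.75, SE 0.09), and PSMD11 fell by 0.35. HSPA8, the constitutive HSP70, stood at 818 and 759 CPM untreated and 2103 and 1959 CPM with torkinib, a rise of 1.37 (SE 0.09, edgeR adjusted p = 4.18e-15), while its mitochondrial relative HSPA9 went from 800.0 and 743 to 451 and 476 CPM (change of -0.73) and the small heat shock protein HSPB1 fell by 1.35. Of 22 endoplasmic reticulum genes 12 fell and 2 rose. XBP1, a factor of the unfolded protein response, went from 115 and 121 to 51.3 and 53.3 CPM (change of -1.18), HERPUD1 fell by 0.72, PDIA6 fell by 0.71 and HSPA5 (BiP) fell by 0.47. Of 24 NRF2 targets 11 fell and 3 rose, and FTH1, ferritin heavy chain, went from 466 and 441 to 282 and 273 CPM (change of -0.71).

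Histone genes are described without a test of the group, since they were gathered after their values were seen in A375. Of 85 genes whose symbol starts with HIST and a cluster number 27 passed the filter on low counts, and all 27 were called higher. A gene can pass that filter through its treated libraries. Without untreated replicate 1 the median change of the 27 was 3.83. Histone genes with other symbols are not in this list, and H2AFZ, given above, fell with torkinib. HIST2H2BE, an H2B gene whose message can be polyadenylated, stood at 2.50 and 2.86 CPM untreated and 88.1 and 86.7 CPM with torkinib, a rise of 5.01 (SE 0.23, edgeR adjusted p = 4.36e-24). HIST1H2AC went from 5.27 and 3.3 to 88.4 and 75.8 CPM (rise of 4.27), HIST1H2BK from 6.32 and 5.25 to 76.5 and 66.9 CPM (rise of 3.64), HIST1H2BD from 0.791 and 0.596 to 21.0 and 17.7 CPM (rise of 4.79) and HIST1H1C, a linker histone, from 5.27 and 3.22 to 37.7 and 39.999 CPM (rise of 3.20). HIST1H4H had 2 counts untreated and 101 with torkinib, a ratio of 74.4 (20.1 to 623). The median change of the 27 was 3.77, or 3.30 with members lacking counts at their bound, and both the choice of the list and the filter favour high values. Histone genes are near-identical copies whose reads the counting can split, so single genes are uncertain, and the library preparation was not given in the sources used here.

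Markers of other cell types were low or moved with the gene groups above. The 5 fibroblast markers summed to 50.3 and 33.9 CPM of library totals untreated and 6.72 and 5.94 CPM with torkinib, and of 13 fibroblast and adipocyte genes tested 9 fell (6 without untreated replicate 1) and none rose. PDGFRB, the receptor of pericytes and fibroblasts, went from 20.4 and 23.8 to 4.11 and 3.37 CPM (change of -2.54), and PPARG, a factor of adipocytes, from 88.9 and 91.8 to 31.95 and 35.2 CPM (change of -1.44). COL1A1, which is high in 94T778, stood at 2.65 and 2.81 CPM of library totals untreated. It had 39 counts untreated and none with torkinib, at least 8.82-fold lower. Its change was -7.08, or -7.11 without untreated replicate 1, sizes that rest on treated libraries without counts. Of the fibroblast sums THY1, also high in 94T778, made 20.9 and 0.535 CPM untreated. The 7 breast epithelial markers summed to 440 and 456 CPM untreated and 333 and 315 CPM with torkinib, most of it KRT18, which fell by 0.72, while EPCAM and CDH1 were at 0.294 CPM or below in each library. The 6 blood and endothelial markers summed to 1.18 and 1.74 CPM untreated and 1.95 and 0.742 CPM with torkinib. The part of such cells in the changes of matrix and adhesion genes was not tested.

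Among the 562 genes high in 94T778, 217 (38.6%) were called lower and 46 (8.19%) higher, against 24.3% and 18.5% of all genes. Without untreated replicate 1, the untreated level of these genes rests on replicate 2 alone. The rule asks for a low level there, which can raise their changes in that fit, so its calls are not counted here. Of 18 genes of the chromosome 12 amplicon of liposarcoma, 5 rose (3 without untreated or torkinib replicate 2) and 7 fell. The median ratio of untreated replicate 1 to replicate 2 was 1.32 over the 562 genes. It was 1.00 over the 10197 genes with a mean of 8 CPM or more, a set with another limit on level. The rule for the 562 genes asks for a low level in replicate 2, which can raise their ratio by itself. FN1 (fibronectin), at 50882 CPM of library totals in 94T778, stood at 709 and 66.2 CPM in the untreated libraries and 20.4 and 24.0 CPM with torkinib. Untreated replicate 1 was the 1 high library, and the change of -4.20 (SE 0.52) was -1.65 without it. MDM2 stood at 249 and 119.2 CPM in the untreated libraries and 313 and 359 CPM with torkinib in A375 and at 6905 CPM in 94T778. Both treated libraries were above both untreated ones, by 0.81 (SE 0.15) in the fit with replicate 1 and by 1.43 without it. LDHA, lactate dehydrogenase A, stood at 706 and 673 CPM in the untreated libraries and 1093 and 1201 CPM with torkinib, and its rise of 0.67 was 0.71 without replicate 1. ATXN7L3B stood at 259 and 167 CPM in the untreated libraries and 305 and 292 CPM with torkinib; its rise of 0.43 was 0.78 without untreated replicate 1 and was not called without replicate 2 (0.14, edgeR adjusted p = 0.294). THY1, a fibroblast marker, stood at 20.9 and 0.535 CPM in the untreated libraries and 0.177 and 0 CPM with torkinib, and its call was lost without untreated replicate 1 (-2.22, edgeR adjusted p = 0.199).

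**Figure D4:**
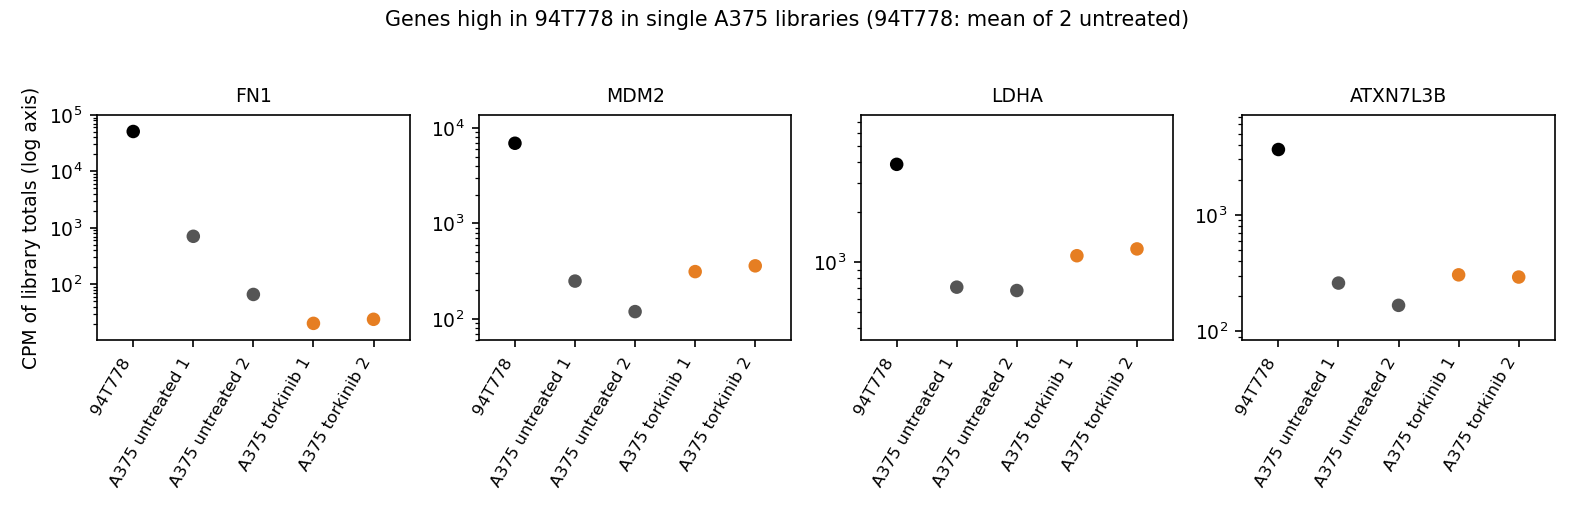
CPM of library totals (log axis) of the 4 genes with the highest level in untreated 94T778 among the 562 genes high there relative to A375, in that line (mean of 2 libraries) and in each A375 library. For each of the 4 genes untreated replicate 1 lies between 94T778 and untreated replicate 2, FN1 with 709 against 66.2 CPM and LDHA with 706 against 673 CPM.

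SKMEL28, also a melanoma line, and AU565, a breast line, received the same 4 µM for 72 h, so their responses were compared with that of A375 by testing the difference of the changes. In 2225 genes the A375 response differed from both, 1088 times higher (6.52% of genes tested) and 1137 times lower (6.81%). Of the ATF4 list 18 of 35 members differed from both, all lower in A375, where the list median was -1.95, against -0.75 in SKMEL28 and 0.27 in AU565. The PSAT1 change of -3.30 stood against -2.74 in SKMEL28 and -0.34 in AU565, differences of -0.56 (SE 0.12, edgeR adjusted p = 3.80e-04) and -2.96 (SE 0.13, edgeR adjusted p = 4.06e-20). TRIB3 differed by -2.42 (SE 0.15, edgeR adjusted p = 1.58e-15) from SKMEL28 and by -2.93 (SE 0.12, edgeR adjusted p = 1.74e-20) from AU565. The ASNS change was not shown to differ from that in SKMEL28 (-3.37), with a difference of -0.01 (SE 0.14, edgeR adjusted p = 0.9999), and it differed from AU565 by -4.75 (SE 0.13, edgeR adjusted p = 1.29e-25). Of the synthetases 8 of 20 differed from both, all lower in A375.

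The responses of p53 targets also differed between the lines. Their median of 0.78 stood against -0.46 in SKMEL28 and -0.24 in AU565. Of 24 members, 13 differed from both with a higher value in A375 and 1, GDF15, with a lower one. The CDKN1A change of 1.14 stood against -1.22 in SKMEL28 and -0.06 in AU565, differences of 2.35 (SE 0.20, edgeR adjusted p = 6.28e-12) and 1.198 (SE 0.20, edgeR adjusted p = 7.05e-06). ZMAT3 differed by 2.51 (SE 0.13, edgeR adjusted p = 5.72e-17) from SKMEL28 and by 2.93 (SE 0.19, edgeR adjusted p = 1.27e-15) from AU565.

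Mitosis genes fell by less in A375. Of 45 members 23 differed from both lines, all with a smaller fall in A375, and the medians were -2.15 in A375, -2.70 in SKMEL28 and -4.24 in AU565. KIF20A fell by 2.59 in A375 and changed by -3.37 and -5.29 in SKMEL28 and AU565. RRM2 differed by 2.13 (SE 0.15, edgeR adjusted p = 1.17e-13) and 2.88 (SE 0.20, edgeR adjusted p = 6.25e-15). Proteasome genes differed likewise, 19 of 32 with a higher value in A375 (medians -0.10, -0.41 and -0.74), and so did 13 of 44 nuclear genes of oxidative phosphorylation (medians -0.08, -0.31 and -1.05). Of the ribosomal protein and translation list 12 of 51 had a lower change in A375 than in both (medians 0.65, 1.33 and 0.74), and of the MAPK output list 7 of 26 were lower and 1, FOS, was higher. The 12 genes with the widest gaps were taken under the limits used for the largest rises and falls. Among them was LRRK2, a kinase mutated in Parkinson's disease, at 12.4 and 13.8 CPM untreated and 59.95 and 69.9 CPM with torkinib. It rose by 2.30 and changed by -0.70 in SKMEL28 and -3.82 in AU565. A2M, a protease inhibitor, stood at 105 and 108 CPM untreated and 5.17 and 5.47 CPM with torkinib. It fell by 4.32 and changed by 1.84 in SKMEL28 and 0.36 in AU565. JDP2, ANKRD1, CPA4, ITGB4 and KRT81 also fell by more in A375 than in both lines.

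**Figure D5:**
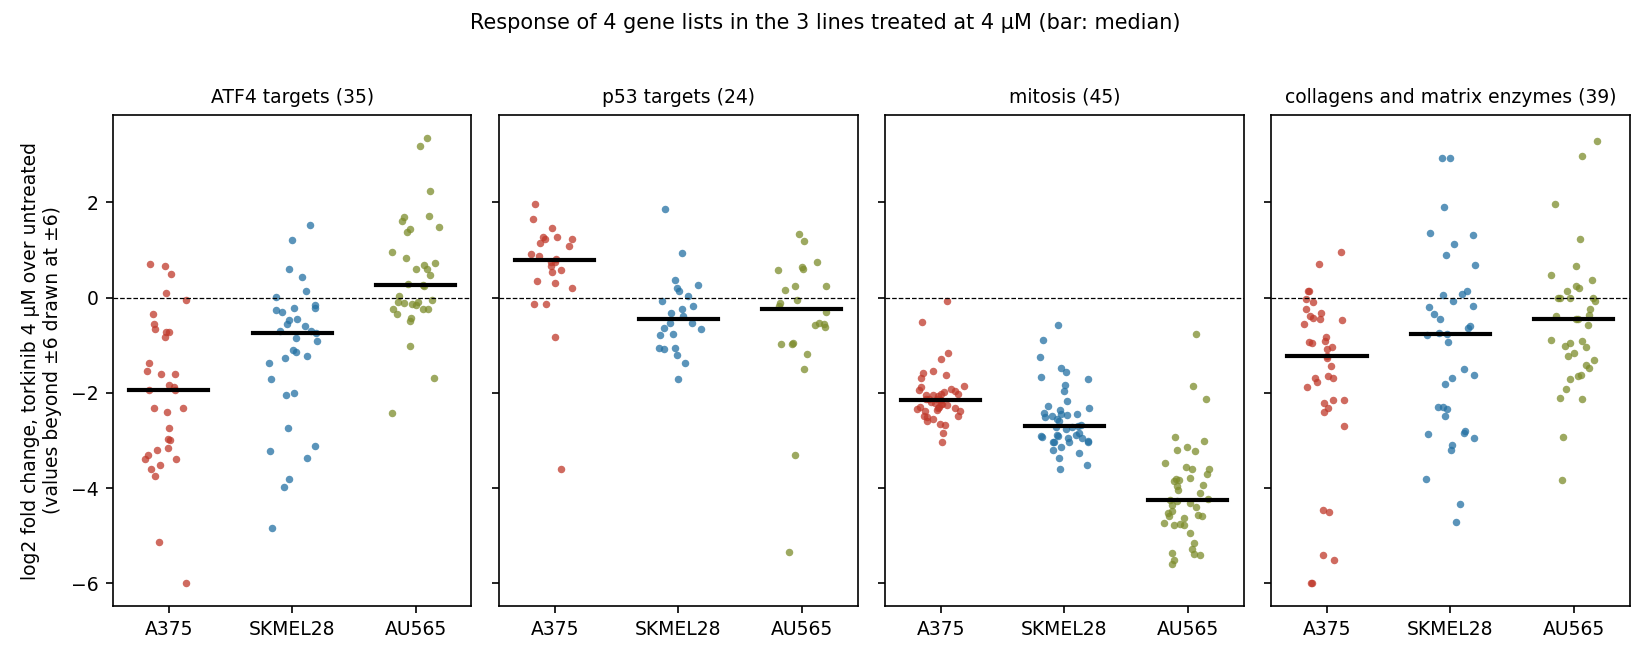
Change of each member (points, log2 fold change of torkinib 4 µM over untreated, 2 libraries a group) of 4 gene lists in A375, SKMEL28 and AU565, with the median as a bar and no change as a dashed line. ATF4 targets have medians of -1.95, -0.75 and 0.27, p53 targets of 0.78, -0.46 and -0.24 and mitosis genes of -2.15, -2.70 and -4.24 in that order.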

How the data were processed

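The deposited files hold a count of reads per gene symbol for each of 20 libraries, raw per the file values, and per the submitters' processing notes the tools were HISAT2 2.04, HTSeq 0.6.1 and limma 3.34.9 with the build hg19 (GRCh37). Their roles, the annotation, the strand setting and the library kit were not given in the sources used here, so reads of overlapping or antisense genes cannot be told apart. The counter's summary lines, which hold reads assigned to no gene (40.09 to 48.99% of reads in the A375 libraries), were dropped before scaling. Counts were fitted with edgeR 4.0.16 in R 4.3.3 (TMM, filterByExpr, quasi-likelihood test, 10 group means over all 20 libraries, so that lines share the estimate of spread), giving 16698 genes tested, a square-root common dispersion of 0.0547 and 10 residual degrees of freedom. P-values were adjusted over all genes by Benjamini-Hochberg with a threshold of 0.05, and the script was tested on simulated data. DESeq2 1.42.0, limma-voom (limma 3.58.1), other scalings, no filter and leaving out single libraries were alternatives.

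Genes named are the 12 largest rises and falls (at least 8 CPM in the higher group, no overlap, not high in 94T778, protein coding), the 4 members of smallest p in each list, all members with a value of the MTOR, polymerase, MAPK and melanocyte lists, the 6 genes highest and 6 lowest against both other lines, and the 4 with the highest level in 94T778 among genes high there, of which a few are not reported here. The lists, members and rule were chosen with earlier results of these data known. Exceptions named after their values were seen are ATF4, ATF3, IARS, MCOLN1, DARS, KARS and RARS, and NGFR, EPCAM and THY1 were named as markers. A fold against a group with no count was set against a floor of 3 counts over that group. The replicate numbers were not treated as pairs, since the labels do not say what they share. Same-numbered A375 libraries did not deviate together (r = -0.0856 over 10162 genes), which does not show what the numbers share. Replicates of a group differed by more than sampling noise (chi-square per gene of 2.099 untreated and 2.215 with torkinib). The value was 11.13 in untreated SKBR3, whose libraries also enter the shared estimate of spread. Promoters are RefSeq, GRCh38.p14, matched by symbol, and no coordinates of hg19 were used.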

Additional observations from a re-analysis of the deposited data

Results flagged for a closer look

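The 12 genes here differed in their response from both other lines treated at 4 µM. The differences themselves were tested (edgeR's quasi-likelihood test, adjusted p under 0.05 for each). The genes are the 6 widest on each side by the smaller of both differences, within the limits used for the largest rises and falls. Values are on the log2 scale as A375 minus the other line. Higher in A375 were HIST2H2AA3 (5.9959), HIST2H2BE (3.8695), HIST1H1C (3.1865), HIST1H4H (3.0313), LRRK2 (2.9969) and HIST1H2BK (2.9229). The histone values are of near-identical genes and are uncertain one by one. Lower in A375 were KRT81 (-6.7933), ITGB4 (-5.5663), ANKRD1 (-5.3411), CPA4 (-4.9912), JDP2 (-4.8319) and A2M (-4.6810). ANKRD1 had 2 counts with torkinib and JDP2 had 1, so the size of both differences is limited by counting.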

How the results depend on the processing

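Counts of genes called kept within 1.5 times of 3087 higher, 4053 lower and 2225 differing from both lines in each alternative, and no gene called in 2 settings had opposite signs. Leaving out 1 A375 library gave 2145 to 2621 higher, 3179 to 3535 lower and 1802 to 1993 differing. With the replicate block the counts were 3065 for A375 genes called higher with torkinib, 4070 for A375 genes called lower with torkinib and 2298 for A375 response differing from both SKMEL28 and AU565. The labels do not say what a replicate number shares, and the block is given for the record. Of 224 named genes called, 201 kept their call in all alternatives and 23 did not. Scaling by library totals moved the share of higher among called genes from 43.2% to 50.7%.

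With the A375 libraries alone, the log2 change was of the other sign in RICTOR (0.0249), FNIP1 (0.0018), AKT1 (0.0014) and DUSP6 (0.0072). With DESeq2, the log2 change was of the other sign in RICTOR (0.001) and SPRED3 (-0.0006). With library totals as the only scaling, the log2 change was of the other sign in RICTOR (0.0597), FNIP1 (0.0357), AKT1 (0.0347), AKT2 (0.0061) and DUSP6 (0.0416). With no filter on low counts, the log2 change was of the other sign in MTOR (-0.0213) and SPRED3 (-0.022). With 1 A375 library left out, the change crossed 0 in some setting for these uncalled genes, ranging over MTOR -0.0584 to 0.088, RICTOR -0.0898 to 0.0838, FNIP1 -0.1656 to 0.1157, RPS6KB1 -0.178 to 0.0035, SPRED3 -0.1811 to 0.1379, PMEL -2.1611 to 0.0333, OCA2 -0.3645 to 0.7759, SLC45A2 -1.0845 to 0.5033 and AKT2 -0.1196 to 0.01. Further such ranges were MLANA -0.0606 to 1.2621, TYR -0.5459 to 3.9528, TRPM1 -2.1536 to 2.543, RPTOR -0.0138 to 0.1628, PIK3CA -0.2401 to 0.0066, POLD4 -0.1291 to 0.2028, MLST8 -0.3249 to 0.0396, PRR5 -0.2257 to 0.4442 and PRR5L -1.6277 to 0.3981. Further such ranges were AKT1 -0.1256 to 0.0519, POLL -0.2826 to 0.0605 and TYRP1 -0.5132 to 0.7379. For each of these the cause was not tested, and none of them was called.

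Some list counts moved by over 1.5 times under other fits. With library totals, heat shock rises went from 7 to 11, ribosome biogenesis rises from 9 to 15 and falls from 5 to 3, proteasome rises from 2 to 4 and falls from 11 to 5, oxidative phosphorylation rises from 5 to 8, Fanconi anemia rises from 2 to 4 and class I falls from 5 to 3. With the A375 libraries alone, rises went from 5 to 8 for integrins and laminins and for oxidative phosphorylation, from 9 to 14 for ribosome biogenesis and from 2 to 4 for Fanconi anemia and proteasome genes, and mitochondrial falls from 5 to 8. With no filter, rises went from 5 to 3 for integrins, oxidative phosphorylation and class I genes, from 3 to 1 for synthetases, from 2 to 1 for chromatin and cancer-testis genes and from 2 to 0 for the proteasome, and mitochondrial falls from 5 to 8. With DESeq2, rises went from 2 to 1 for Fanconi anemia and chromatin genes, from 2 to 0 for cancer-testis genes and from 1 to 0 for mitochondrial genes, and falls from 5 to 2 for mitochondrial and from 4 to 2 for cancer-testis genes. With limma-voom, rises went from 2 to 1 for Fanconi anemia, from 5 to 3 for class I, from 1 to 0 for mitochondrial genes and from 1 to 2 for blood and endothelial markers. The replicate block took cancer-testis rises from 2 to 1. The shallowest library, torkinib replicate 2 with 4040023 counted reads, limits what can be seen for genes of few counts. Intervals and floors cover counting error only.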

Other observations

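Immune gene lists that belong in no comparison above moved in both directions in A375. Of 38 interferon-stimulated genes 16 fell and 4 rose (median -0.37, or -0.33 with members lacking counts at their bound). The called share of this list, 52.6%, was near the 53.4% of genes of 8 CPM or more. The median was -0.23 without untreated replicate 1 and -0.13 without torkinib replicate 1. ISG20, an exonuclease, stood at 64.7 and 62.7 CPM untreated and 33.5 and 26.9 CPM with torkinib, and its change was -1.06 (SE 0.13, edgeR adjusted p = 5.00e-09). OAS3 and OAS2, which sense double-stranded RNA, had changes of -0.74 and -1.54, and IFITM1, a membrane protein that blocks viral entry, went from 4.08 and 5.49 to 0.913 and 0.632 CPM. Of 18 genes of class I antigen presentation 5 rose and 5 fell. The rises numbered 3 without untreated replicate 2 or either torkinib library, and the falls 2 without untreated replicate 1 and 3 without either torkinib library. ERAP1, which trims peptides, rose by 0.45, HLA-B, whose reads can be shared with other class I genes, by 0.42, and PSMB9, an immunoproteasome subunit, fell by 0.84. TAPBP fell by 0.46 and was not called without torkinib replicate 2.

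Of 29 inflammatory cytokine and NF-kappa-B feedback genes 10 fell and 7 rose (median -0.22, or -0.14 at bounds). The called share of this list, 58.6%, was near the 53.4% of genes of 8 CPM or more, of which 30.3% fell and 23.0% rose. The median was 0 without untreated replicate 1, the value of CXCL5, which then has no count in A375, and -0.14 without torkinib replicate 1. IL11, a cytokine of the IL6 family, stood at 19.2 and 21.0 CPM untreated and 1.83 and 1.68 CPM with torkinib, TNFAIP2 at 58.5 and 60.9 CPM untreated and 18.1 and 17.7 CPM with torkinib and SOCS2, a feedback inhibitor, at 34.8 and 33.1 CPM untreated and 9.13 and 10.7 CPM with torkinib. In each of these 3 genes both treated libraries were below both untreated ones. Of 18 cancer-testis antigens 4 fell and 2 rose. PRAME stood at 189 and 188 CPM untreated and 118.99 and 106 CPM with torkinib, a change of -0.74 (SE 0.09). GAGE1 and PAGE5 lost their calls without untreated or torkinib replicate 1, and MAGEA1 without untreated or torkinib replicate 2. Falls of the antigen list then numbered 2 without untreated replicate 1 or either torkinib library, and rises 0 without untreated or torkinib replicate 1 and 1 without untreated or torkinib replicate 2.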
